A study of Homo sapiens and Homo sapiens
Mus musculus and Mus musculus with 9 samples.

Results

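The 8 genes described here are the metallothioneins MT1E, MT1F, MT1G, MT1M, MT1X and MT2A, the zinc-sensing transcription factor MTF1 and the zinc exporter SLC30A1. They were picked by a rule on gene symbols that uses no values, but earlier results of these data were known when they were chosen. Each matched 1 of the 41713 genes in the deposited table. The RNA-Seq covered C4-2B cells cultured alone (3 libraries), a mixed culture with 1 part of C4-2B to 30 parts of MC3T3-E1 cells (3 libraries), and MC3T3-E1 cells on their own (3 libraries), which were not used here. C4-2B is an established human prostate cancer line, and the MC3T3-E1 line consists of osteoblast precursors from mouse. Both lines are labelled as wild type. The human reads of the mixed cultures were separated from the mouse reads by 3 pipelines, Xenome, XenofilteR and Kallisto.

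Metallothioneins are small proteins in which cysteines recur along the whole chain, and the thiols of these cysteines bind zinc and copper. When free zinc rises in a cell, MTF1 binds it, enters the nucleus and switches on genes that carry metal response elements in their promoters, among them the metallothionein genes and SLC30A1. SLC30A1, also known as ZnT1, then moves zinc out across the plasma membrane, so that storage and export answer to a shared sensor. Normal prostate epithelium is known for its high zinc content, which is lost in most prostate cancers.

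The metallothionein genes of chromosome 16 lie close together and read much alike. In GRCh38, 12 genes or pseudogenes of the fixed lists span 119.1 kb, from MT4 to MT1X, at chr16:56565073-56684196. The coding part of MT2A has 61 codons in 3 exons, of which 20 codons, or 32.8%, encode cysteine. MT1E, MT1F, MT1M and MT1X have the same 61 codons with 20 for cysteine, and MT1G has 62 with 20. MTF1, for comparison, has 21 cysteine codons in 753, and SLC30A1 has 18 in 507. The coding sequences below, from GENCODE release 44 on the plus strand of GRCh38, show how little separates the genes whose reads had to be told apart, and capitals mark each base that differs from MT2A. MT2A lies at chr16:56608584-56609497, MT1X at chr16:56682470-56684196, MT1F at chr16:56657731-56660698 and MT1E at chr16:56625475-56627112.
MT2A: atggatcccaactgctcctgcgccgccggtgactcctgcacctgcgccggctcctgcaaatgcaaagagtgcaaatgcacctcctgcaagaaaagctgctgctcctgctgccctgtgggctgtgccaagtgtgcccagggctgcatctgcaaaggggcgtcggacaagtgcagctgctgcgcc
MT1X: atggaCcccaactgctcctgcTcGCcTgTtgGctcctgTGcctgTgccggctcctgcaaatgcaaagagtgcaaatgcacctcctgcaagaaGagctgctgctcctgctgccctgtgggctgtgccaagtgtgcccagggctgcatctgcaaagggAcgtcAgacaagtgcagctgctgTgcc
MT1F: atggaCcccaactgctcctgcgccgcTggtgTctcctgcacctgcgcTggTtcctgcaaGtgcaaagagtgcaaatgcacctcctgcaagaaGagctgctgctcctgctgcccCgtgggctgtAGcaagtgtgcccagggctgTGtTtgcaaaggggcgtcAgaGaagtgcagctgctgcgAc
MT1E: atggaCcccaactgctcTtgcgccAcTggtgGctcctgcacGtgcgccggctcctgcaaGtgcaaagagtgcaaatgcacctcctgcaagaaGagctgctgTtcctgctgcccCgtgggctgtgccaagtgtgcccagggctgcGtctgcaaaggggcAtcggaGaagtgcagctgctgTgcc
Over these 183 bases MT1X and MT1E each differed from MT2A at 14 positions and MT1F at 16. The coding sequence of MT1M was 89.6% identical to that of MT2A, and that of MT1G was 93.5% identical over 186 aligned columns.

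The measurement used for each gene is a mean count, the reads of a gene divided by the size factor of the library and averaged by the authors over the 3 libraries of C4-2B alone and the 3 of the mixed culture. It has no SD and no n, and it does not separate the groups. The columns of the table that hold the authors' own comparison were not used, so no difference between C4-2B alone and the mixed culture is reported, and a change in the number of C4-2B cells could not be told apart from a change in RNA per cell. Where genes are compared with each other, the mean count was divided by the length of all annotated exons in kb. Lowest means are sums of whole reads over 6 libraries, and from them the size factors of the libraries were solved for Xenome as 5.93, 5.31, 4.86, 0.427, 0.145 and 0.109. The libraries carry no name in the table and are named a to f here, in that order. A single read added 0.0281 to a mean in library a and 1.53 in library f, so that a low mean can rest on 1 or 2 reads of a shallow library.

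MT2A and MT1X held nearly all of the metallothionein signal in each pipeline. MT2A, the most widely expressed member of the family, had a mean count of 1211 with Xenome, 1196 with XenofilteR and 1204 with Kallisto. MT1X had 887.7 with Xenome, 880.3 with XenofilteR and 1188 with Kallisto. Together they made up 96.5% of the summed mean count of 12 protein-coding metallothionein genes with Xenome, 96.5% with XenofilteR and 97.3% with Kallisto. Per kb of exon, MT2A reached 1325 with Xenome, above 92.5% of the protein-coding genes listed, and MT1X reached 514.0, above 78.8%. The level of MT2A per kb was thus 2.58 times that of MT1X with Xenome and 1.92 times with Kallisto. Their order was not secure, since with the length of the median transcript the ratio was 1.28 with Xenome and 0.948 with Kallisto.

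MT1F and MT1G, also isoforms of the MT1 group, were far lower. MT1F had a mean count of 70.6 with Xenome, 70.0 with XenofilteR and 63.7 with Kallisto. Per kb it stood at 38.1 with Xenome, and MT2A was 34.8 times higher on that scale. Per kb of the median transcript MT1F stood at 167.8, and MT2A was 12.4 times higher. MT1G, which lies on the minus strand at chr16:56666731-56668065, had a mean count of 5.73 with Xenome, 4.64 with XenofilteR and 0.939 with Kallisto. With Xenome it stood at 7.63 per kb of exon and at 14.0 per kb of the median transcript, below MT1F on both scales. All the metallothionein genes together took 0.00513% of the summed mean count of all genes with Xenome and 0.00530% with Kallisto.

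MT1E and MT1M were not listed with Xenome or XenofilteR and were listed at 0 with Kallisto. MT1M lies at chr16:56632659-56633981, between MT1E and MT1A. No mean in the table equalled 1 read of any library with Xenome, while 1954 equalled 2 reads, so a gene without a value had at most 1 read in the 6 libraries if the same rule held for it. Of 19939 protein-coding genes listed with Kallisto, 1188 or 5.96% were at 0, and 1139 of them were also without a value with Xenome. None of 10 genes used by every cell, such as GAPDH and ACTB, was at 0 with Kallisto. Along chromosome 16, the genes with a high level were thus not neighbours. MT1X begins 73.89 kb from the start of MT2A, and among the genes between them MT1E, MT1M, MT1B and MT1H had no value above 0.

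**Figure D1:**
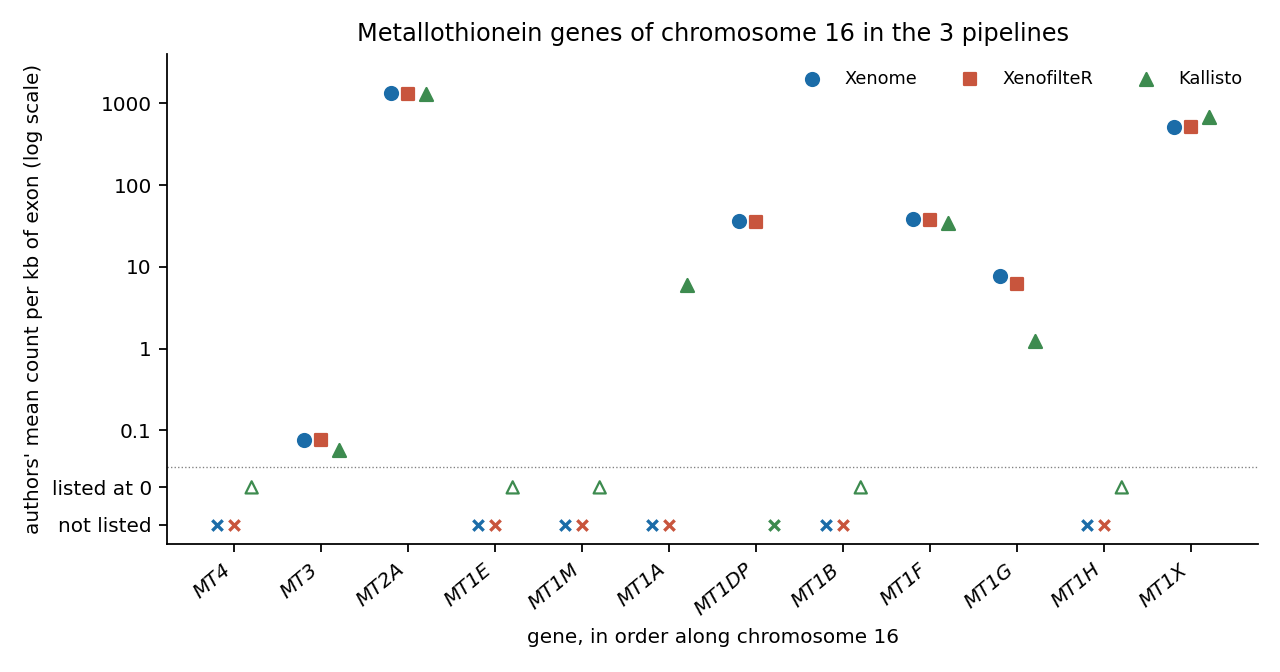
Mean count per kb of exon (log scale) of the 12 metallothionein genes and pseudogenes on chromosome 16, in their order along the chromosome, with 1 symbol per pipeline; open symbols are genes listed at 0 and crosses are genes not listed. MT2A and MT1X stand above the rest in each pipeline, MT1F and MT1G are lower, and MT1E and MT1M have no value above 0.

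The remaining protein-coding metallothionein genes had low means or no value above 0. MT3, the form best known from brain, had a mean count of 0.128 with Xenome and 0.0956 with Kallisto, and its 4 reads with Xenome lay in libraries a to c. MT1A had 2.37 with Kallisto and no value with Xenome or XenofilteR. MT1B, MT1H, MT1HL1 and MT4 were listed at 0 with Kallisto and not listed with the other pipelines. Among the pseudogenes, MT1DP had a mean count of 5.46 with Xenome, MT1P1 had 4.85 and MT1P3 had 1.13. Being short, they came to 36.4, 26.5 and 6.40 per kb of exon. MT1DP was thus close to MT1F at 38.1 per kb of exon, but not per kb of the median transcript, where MT1F was at 167.8. The 150 bases of MT1DP are those of GENCODE release 44, whose coordinates for it differ from the table's. All 101 of its 50-base words also occur in the noncoding gene ENSG00000291095, and 58.6% of those of MT1P3 occur in other genes. MT1P1, a processed copy on chromosome 9, had 62 reads with Xenome beside the 102 of MT1G, but 63.6% of its mean came from 4 reads, 2 each in the shallow libraries d and e. Of its 134 distinct 50-base words, 12 also occur in MT1G.

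The reads of MT1G could be placed in single libraries. With Xenome, libraries a, b and c had 43, 32 and 24 reads, library d had 1, library e had 2 and library f had 0. Divided by the size factors, these came to 7.26, 6.02 and 4.94 in libraries a to c, 2.34 in d and 13.8 in e. The 95% Poisson interval of library e ran from 1.67 to 49.9, which covered the values of all the other libraries except f, and 0 reads in f allowed a level of up to 27.6 at 3 reads. The 3 shallow libraries d to f gave 3 of the 102 reads and 47.0% of the mean. With XenofilteR, library e had 1 read, and the mean was 4.64 in place of 5.73 although the 6 libraries held 103 reads in all. The levels of MT1G in the shallow libraries were therefore not distinguishable from those in the deep ones at this depth.

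**Figure D2:**
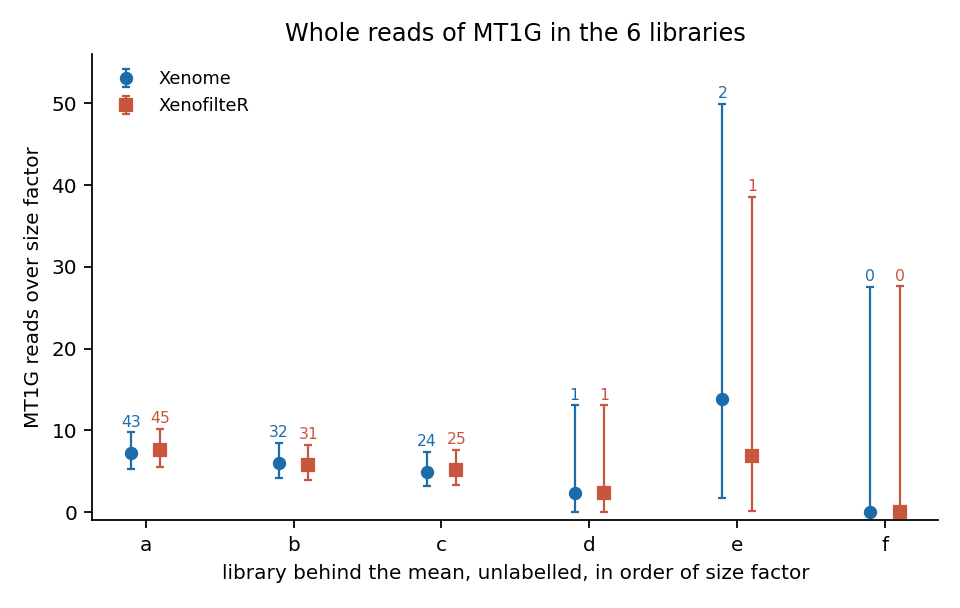
Reads of MT1G divided by the size factor in each of the 6 unlabelled libraries, for Xenome and XenofilteR, with 95% exact Poisson intervals (for 0 reads, the limit of 3 reads) and the number of reads above each point. Libraries a to c lie between 4.94 and 7.58, and the intervals of libraries d to f span all of these values.

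MTF1 and SLC30A1, the sensor and the exporter, were both detected at levels that hardly depended on the pipeline. MTF1, at chr1:37809574-37859592 on the minus strand, had a mean count of 3062 with Xenome, 3069 with XenofilteR and 3152 with Kallisto. SLC30A1, at chr1:211571568-211579161 on the minus strand, had 2639, 2631 and 2644 in the same order. Their higher counts than MT2A came with longer transcripts. Per kb of exon with Xenome, SLC30A1 stood at 447.9 and MTF1 at 383.3, above 76.1% and 73.2% of protein-coding genes, and MT2A was 2.96 and 3.46 times higher. Per kb of the median transcript, MT2A was 4.66 times SLC30A1 and 2.84 times MTF1. The order of SLC30A1 and MTF1 rested on the length used, since SLC30A1 was at 0.611 of MTF1 per kb of the median transcript. On the exon scale with Xenome, the order was MT2A, MT1X, SLC30A1, MTF1, MT1F and MT1G, and since values per library could be solved for MT1G alone among these genes, no spread could be set against the gaps.

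SLC30A1 stood in the middle of the zinc exporters, between SLC30A6 at 477.1 and SLC30A7 at 382.0 per kb with Xenome. Of the other 9 genes of its family, 7 had a mean count of at least 50 with Xenome, or 77.8% beside 58.5% of all protein-coding genes, and their median per kb was 382.0 beside 96.2. Per kb of exon, SLC30A4, which loads zinc into vesicles, was the highest at 1988. SLC30A5, a transporter of the secretory pathway, followed at 956.7 and SLC30A9 at 900.9. That order rested on the length used, since per kb of the median transcript SLC30A5 and SLC30A9 stood above SLC30A4. For the zinc importers of the SLC39 family, the median of 335.9 per kb of exon was below that of the exporters. These medians changed order with the longest or the median transcript as the length, where the importers had the higher one. On the exon scale, the most abundant importers stood above SLC30A4 or close to it. Of 14 importers, 11 (78.6%) reached a mean count of 50. Per kb of exon, SLC39A6 stood at 3710, SLC39A7, which releases zinc from the endoplasmic reticulum, at 2479 and SLC39A8 at 1726. The order of the importers also rested on the length used. Per kb of the median transcript, SLC39A14 stood above SLC39A6, and SLC39A9 above SLC39A7 and SLC39A8. SLC39A1, a plasma membrane importer, depended on the pipeline more than any other zinc transporter whose means reached 50, with a mean count of 150.0 with Xenome, 151.2 with XenofilteR and 4086 with Kallisto, a ratio of 27.2 between Kallisto and Xenome. Per kb of exon these were 44.3, 44.6 and 1206. In GENCODE release 44 an overlapping gene on the same strand, ENSG00000285779, covers 60.8% of its exon bases, and the part of this overlap in the difference was not tested. Among low genes, SLC30A3 had a mean count of 4.83 with Xenome and 45.2 with Kallisto, and SLC30A8 had 1.86 and 9.56.

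**Figure D3:**
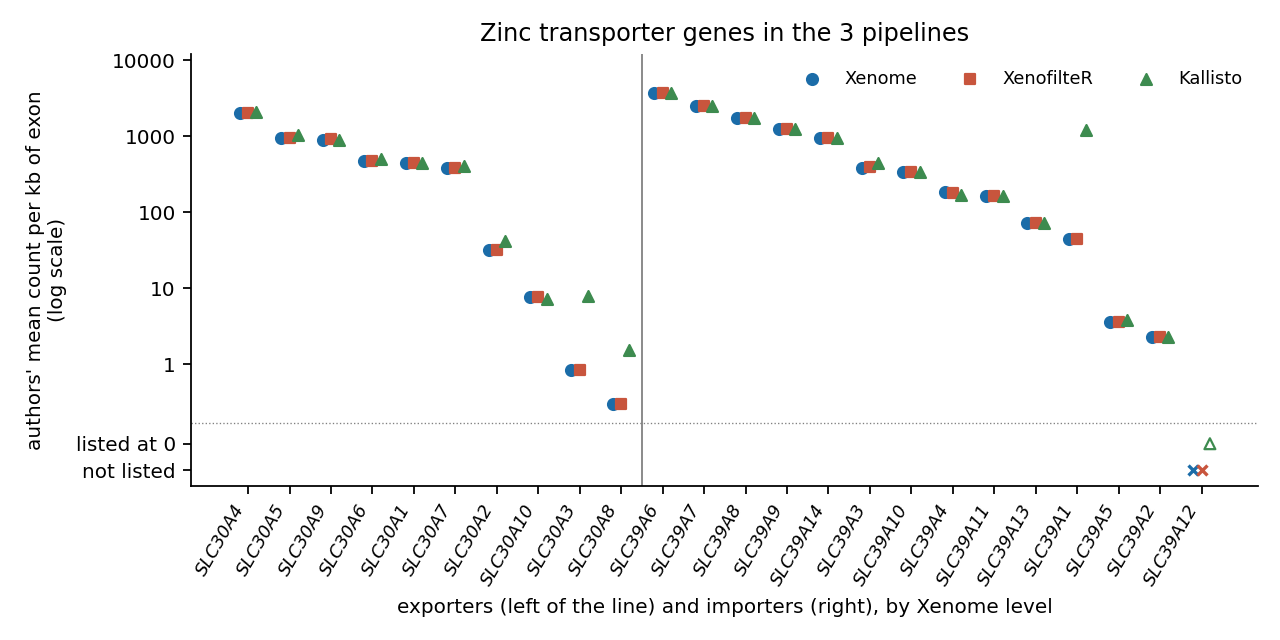
Mean count per kb of exon (log scale) of SLC30A1 and the other zinc exporters, and of the zinc importers, ordered by the Xenome level, with 1 symbol per pipeline. SLC30A1 sits at 447.9 among exporters that range up to 1988, and SLC39A1 is the importer whose Kallisto symbol stands apart.

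How far the pipelines differed on a gene was set against 11580 protein-coding genes, those whose means reached 50 with both Kallisto and Xenome. For these genes the log2 ratio of Kallisto to Xenome had a median of 0.03, and its 5th and 95th percentiles were -0.13 and 1.16. SLC30A1 had a log2 ratio of 0.00, MT2A of -0.01 and MTF1 of 0.04, all close to that median. MT1X had 0.42, at the percentile 87.4, which is inside the range. MT1F had -0.15, at the percentile 4.30, just outside it. It stayed outside at 4.30 with genes of any biotype, and was inside at 5.74 with genes from a mean of 10 and at 8.60 with no minimum. MT1G had -2.61, but its mean was below 50 in both pipelines. Xenome and XenofilteR, which share aligner and counting, differed far less. Their log2 ratio was -0.02 for MT2A, at the percentile 4.08 of 11647 genes, and lay between -0.01 and 0.00 for MT1X, MT1F, MTF1 and SLC30A1. The value of MT2A was outside the 5th to 95th percentile there and at 4.85 with genes from a mean of 10, and inside at 6.50 with no minimum and at 6.37 with genes of any biotype.

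**Figure D4:**
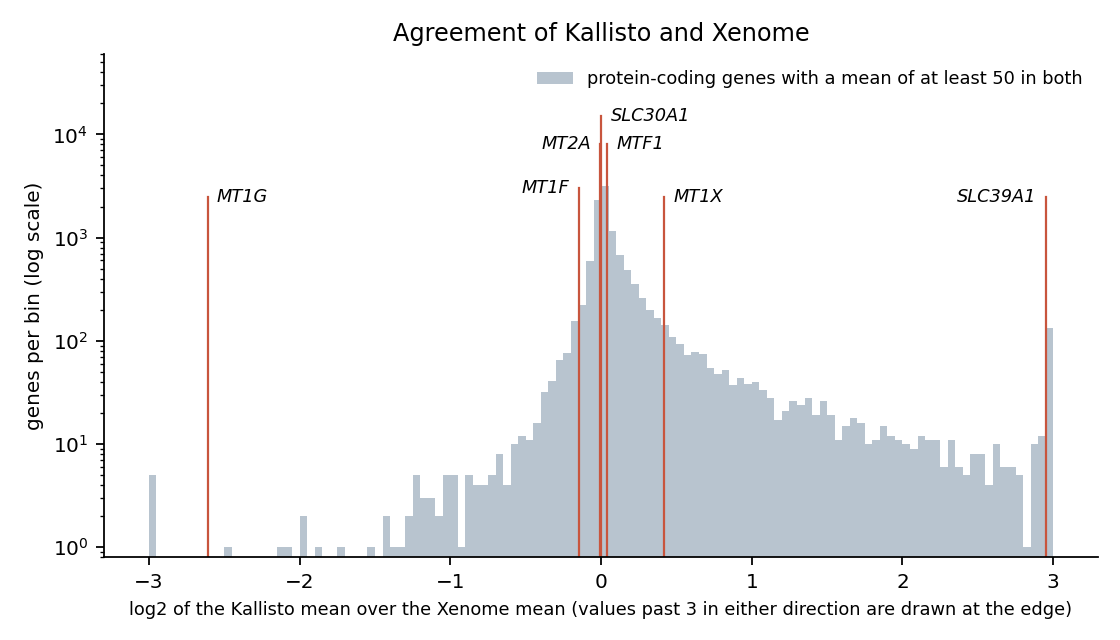
Number of protein-coding genes (log scale) by the log2 ratio of their Kallisto and Xenome mean counts, with lines for 6 of the 8 genes and for SLC39A1, which is drawn at the edge. MT2A, SLC30A1 and MTF1 lie at the centre, MT1X at 0.42, MT1F at -0.15 and MT1G at -2.61.

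The members differed in how much of their annotated sequence also occurs in another gene. Reads were paired and 50 bases long, so the distinct 50-base words of each gene's transcripts were looked up in the transcripts of all other genes. SLC30A1 shared none of its 5844 words with another human gene, MTF1 shared 0.894%, MT1F 1.24% and MT2A 4.48%. The share was 7.10% for MT1E, 16.5% for MT1G, 18.2% for MT1M and 18.7% for MT1X. These shares are over the words of all annotated transcripts, 1934 words for MT1F and 1005 for MT2A. The 3-exon coding transcripts of MT1F and MT2A have only 425 and 401 bases. Shares within such transcripts alone were not computed, so the order of the genes may depend on the annotated transcripts. MT1G shared words with 11 other genes, most with MT1H (54 words) and MT1X (51 words). For MT1X, 273 of the 341 shared words belonged to ENSG00000259827, a long noncoding RNA gene at chr16:56682470-56687807 whose exons cover 18.6% of the exon bases of MT1X on the same strand. Whether that overlap has a part in the higher Kallisto value of MT1X was not tested. None of the metallothioneins shared an exact 50-base word with a mouse transcript. MTF1 shared 78 words with mouse genes, all with Mtf1, and SLC30A1 shared 40 with Slc30a1, or 0.983% and 0.684% of their words. With 31-base words, MT1X, MT1F, MT1G and MT1M shared 5 words each with mouse Mt1, and MT2A shared 2 with Mt2. Matches with mismatched bases were not looked up, so how reads of the mouse metallothioneins were sorted was not tested.

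**Figure D5:**
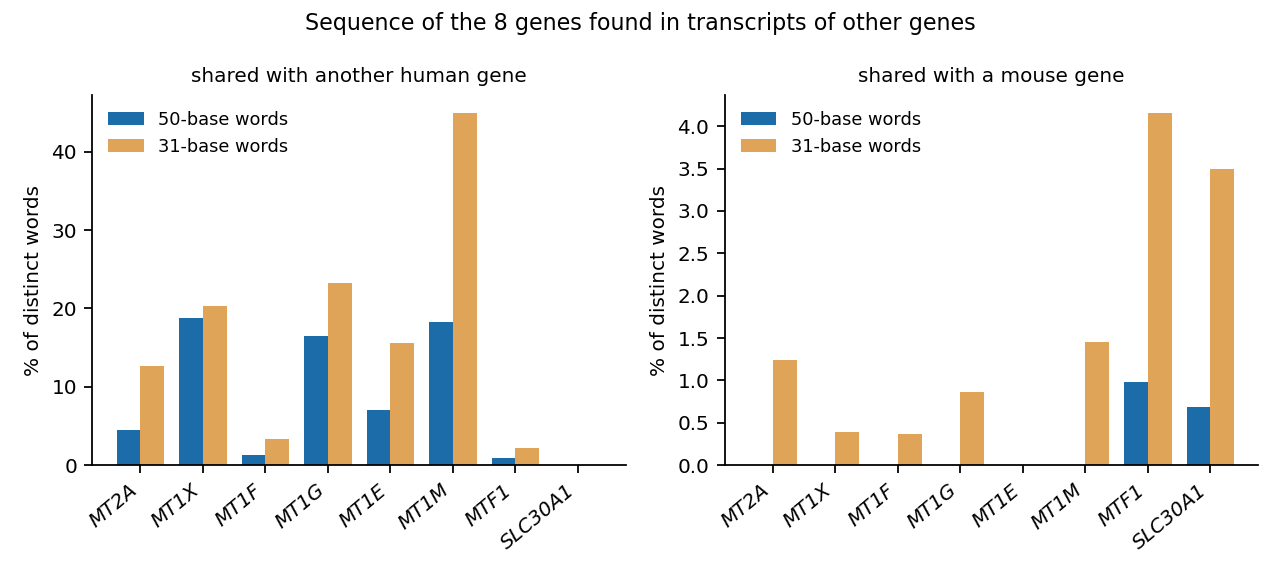
Percent of the distinct 50-base and 31-base words of each of the 8 genes that also occur in transcripts of another human gene (left) or of a mouse gene (right). MT1X, MT1M and MT1G share the most 50-base words with human genes, and only MTF1 and SLC30A1 share 50-base words with mouse genes.

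The promoters of the 2 most abundant metallothioneins carried several copies of the core of the metal response element, the letters bound by MTF1. The cores TGCACNC and TGCGCNC were searched on both strands in windows from RefSeq (GRCh38.p14) that run from 250 bases before a start site to 50 after it. Windows were found for 4 of the 8 genes, MT2A, MT1X, MTF1 and SLC30A1, and not for MT1E, MT1F, MT1G and MT1M. The windows of MT2A (chr16:56608334-56608633, plus strand) and MT1X (chr16:56682220-56682519, plus strand) are printed because the data place nearly all metallothionein signal in these genes, and capitals mark the cores.
MT2A: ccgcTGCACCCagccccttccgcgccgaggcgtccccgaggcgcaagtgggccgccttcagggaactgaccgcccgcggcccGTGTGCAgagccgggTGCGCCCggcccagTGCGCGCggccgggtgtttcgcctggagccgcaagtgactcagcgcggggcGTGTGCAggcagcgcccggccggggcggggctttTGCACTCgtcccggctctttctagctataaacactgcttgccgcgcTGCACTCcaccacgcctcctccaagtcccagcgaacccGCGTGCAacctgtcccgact
MT1X: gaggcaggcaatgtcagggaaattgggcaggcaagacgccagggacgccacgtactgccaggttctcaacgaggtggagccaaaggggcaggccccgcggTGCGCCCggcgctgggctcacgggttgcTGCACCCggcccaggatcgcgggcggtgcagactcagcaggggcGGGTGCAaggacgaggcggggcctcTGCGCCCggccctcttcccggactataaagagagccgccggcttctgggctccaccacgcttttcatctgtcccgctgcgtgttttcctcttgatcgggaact
MT2A had 8 cores, 5 on the strand of the gene and 3 on the opposite strand, and 0.0199% of 35116 windows had as many. MT1X had 4, which 0.601% of windows reached. SLC30A1 had 2 cores, both on the opposite strand, and 8.60% of windows had 2 or more. MTF1 had 0, while 29.6% of windows had at least 1. The number of cores did not follow the level, since MT1H had 8 cores as well and was listed at 0 with Kallisto. MT1B and MT4, also at 0, had 3 each.

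The labelled cell line was checked against marker genes. All 9 matched markers of prostate epithelium had a mean count of at least 50 with Xenome, with a median of 2239 per kb of exon. The highest on that scale were KLK3 at 11002, FOLH1 at 7060 and HOXB13 at 3466. Per kb of the median transcript, FOLH1 stood above KLK3 and KRT18 above HOXB13. Of 12 osteoblast markers, read as human genes, 4 (33.3%) had a mean count of at least 50 with Xenome and 5 with XenofilteR. Their median was 2.83 per kb with Xenome. Of all protein-coding genes, 58.5% reached a mean count of 50 with Xenome, and their median was 96.2 per kb. ALPL, SP7, IBSP and SPP1, which mark bone-forming cells, had mean counts of 0.103, 0.984, 2.75 and 0.653 with Xenome. COL1A1 was the most abundant at 375.7 per kb, followed by RUNX2 at 50.2 and SPARC at 15.5.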

How the data were processed

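RNA-Seq libraries from C4-2B cells alone (3) and from the mixed culture (3) lie behind each value, and groups were taken from the sample titles. The authors used Xenome to sort reads by species, or XenofilteR to discard reads that aligned better to mouse. They then counted HISAT2 alignments to GRCh38 per gene with featureCounts. With Kallisto they quantified a joined human and mouse transcriptome. The submitters' processing notes name kallisto, DESeq2, GRCh38 and GRCm38 without versions. The deposited mean is that of the authors' DESeq2 run, over counts divided by size factors, and the only counts per library used here are the reads solved from low means. The deposited columns of the authors' own comparison (log2 fold change, its standard error, the Wald statistic and p-values) were neither used nor compared. The planned edgeR test between the groups was therefore not run on the authors' table, nor were any fits without a replicate.

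Of 41734 rows, 21 repeated a gene and were left out. Lengths and transcripts came from GENCODE release 44 (human) and M21 (mouse). For MT1E the transcript with the most cysteine codons was taken in place of the canonical one. Percentiles are shares of protein-coding genes with a lower value. Whole reads were solved from low means as sums over 6 libraries, and each of the 15274 genes with a mean below 3 with Xenome was written in whole reads. On simulated means, 60 of 60 tried genes among 15609 were recovered (100%). No solved library was assigned to a group. Intervals are 95% and cover counting error only. Promoter windows are RefSeq's. Besides the 8 members, the genes named are the 3 of each list with the highest mean per kb with Xenome and genes with a pipeline ratio outside the 5th to 95th percentile. All other genes named were chosen after their values were seen. The lists held other metallothionein genes and pseudogenes (9 of 13 symbols matched), zinc exporters (9), zinc importers (14), copper handling (8), C4-2B markers (9 of 10 matched) and osteoblast markers (12). The members and lists were chosen with earlier results of these data known. Alternatives were the pipeline, the length used, the reference genes, centring, and words of 31 bases. The software was biopython 1.88, matplotlib 3.10.9, scipy 1.17.1, pandas 2.3.3 and numpy 2.4.6 under python 3.11.15.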

Additional observations from a re-analysis of the deposited data

How the results depend on the processing

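Between Xenome and XenofilteR, none of the 8 genes passed from detected to not detected. Per kb of the median transcript with Xenome, MT2A came to 2085, MT1X to 1633, MTF1 to 733.4, MT1F to 167.8 and MT1G to 14.0. With Kallisto, MT1X came to 687.7 per kb of exon and MT1G to 1.25. With reference genes from a mean of at least 10, the percentile of the Kallisto to Xenome ratio was 83.7 for MT1X, 53.6 for MTF1, 25.4 for MT2A and 5.74 for MT1F, which thereby came inside the 5th to 95th percentile. With no filter on the mean, it was 74.8 for MT1X, 50.1 for MTF1, 25.9 for MT2A, 8.60 for MT1F, again inside, and 0.394 for MT1G. With 31-base words, which are shorter and so found more often, the share in other human genes was 45.0% for MT1M, 23.3% for MT1G, 15.6% for MT1E, 12.7% for MT2A, 3.31% for MT1F and 2.14% for MTF1. The share in mouse genes was 4.16% for MTF1, 3.50% for SLC30A1, 1.46% for MT1M, 1.24% for MT2A, 0.867% for MT1G, 0.393% for MT1X and 0.368% for MT1F. Apart from the word length and the length per kb, the cause of these moves was not tested. The reads of MT1G, 102 with Xenome and 103 with XenofilteR, stayed within counting error.

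No paired analysis was possible because the table holds 1 mean over both groups and no value of a numbered library. For the same reason the alternatives to a test between the groups (other normalizations, no filter on low counts, a replicate block and fits without each replicate) were not run. Depth limits the low genes most, since 0 reads of MT1G in library f allow a level of up to 27.6. Some words of the metallothioneins occur in a paralog, and how each pipeline assigned such reads, or used their mates, was not tested. How reads of mouse metallothioneins that match a human gene with mismatches were sorted was not tested either.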

Other observations

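Copper, the other metal that metallothioneins hold, has its own transporters and carriers, and 7 of the 8 genes of that list had a mean count of at least 50 with Xenome, or 87.5% beside 58.5% of all protein-coding genes. SOD1, the copper and zinc enzyme that removes superoxide, was the highest at 4507 per kb of exon. On that scale the copper importer SLC31A1 followed at 1452 and COX17, which carries copper to cytochrome oxidase, at 1316. With the longest or the median transcript as the length, COX17 stood above SLC31A1. SOD1 had a mean count of 8901 with Xenome, 9924 with XenofilteR and 9895 with Kallisto, and its XenofilteR to Xenome ratio lay at the percentile 98.5 of the reference genes. The copper exporter ATP7A had 2435 with Xenome and 3468 with Kallisto.

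Some bone matrix genes of the osteoblast list, read as human, differed between the pipelines that keep or remove reads by species, but not all. COL1A2 had a mean count of 45.0 with Xenome, 263.6 with XenofilteR and 221.6 with Kallisto. SPARC had 72.0, 142.2 and 141.8, and COL1A1 had 3384, 4557 and 2471, in the same order. Of the genes with low means, IBSP and POSTN had log2 ratios of XenofilteR to Xenome of 0.32 and 1.00. SPP1, DMP1 and BGLAP, also low, had -0.0001, -0.0022 and -0.0122. Their log2 ratios of Kallisto to Xenome were 0.05, -0.14 and -1.75, and those of DMP1 and BGLAP lay outside the 5th to 95th percentile. No metallothionein with a mean of at least 50 differed by as much as COL1A1, COL1A2 or SPARC between Xenome and XenofilteR. The largest log2 difference among them was -0.02 for MT2A.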
